A study of Mus musculus with 6 samples.

Results

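The peptide PACAP, its relative VIP and their receptors were followed in mouse ovaries with and without loss of 1 copy of Rnf111. The system has 5 genes, Adcyap1 (PACAP), Vip (VIP), Adcyap1r1 (the PAC1 receptor), Vipr1 (VPAC1) and Vipr2 (VPAC2), of the 35415 genes in the count table. They were selected on their known pairing as ligands and receptors, after Adcyap1 had been singled out by its genotype difference in the same 6 libraries. Differences between genotypes in these 5 genes are therefore given as a description, and no p-value is printed for them. Ovaries came from mice aged 3 months at estrus, the phase around ovulation, with 3 wild-type and 3 Rnf111+/- libraries, and each library carries the name of a different mouse. Arkadia, the product of Rnf111, is a ubiquitin ligase that acts in TGF-beta family signalling. The allele was introduced with CRISPR-Cas9 in a study of premature ovarian insufficiency. The series made 2 mouse models, and neither the strain nor which of the models was sequenced is given in the sources used here, so the allele could not be checked.

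PACAP and VIP belong to the secretin family of peptides and are cut from larger precursors. PAC1 prefers PACAP, whereas VPAC1 and VPAC2 bind both peptides, and all of them are class B receptors that act mainly through the stimulatory G protein, adenylyl cyclase, cyclic AMP (cAMP) and protein kinase A. In the ovary, PACAP is known as a transient product of granulosa cells, the cells that surround the oocyte, after the surge of luteinizing hormone (LH) and in dependence on the progesterone receptor. VIP is known mainly from ovarian nerve fibres.

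The ligand genes are known for induction through cAMP response elements (CREs), so the 250 bases before an annotated start of the ligand genes and of the PAC1 gene are shown here. The sequences are from RefSeq on build GRCm38.p6 and on the plus strand, at chr17:93198767-93199016 for Adcyap1, chr10:5638968-5639217 for Vip and chr6:55451728-55451977 for Adcyap1r1. Capitals mark the CRE core TGACG, searched on both strands.
Adcyap1: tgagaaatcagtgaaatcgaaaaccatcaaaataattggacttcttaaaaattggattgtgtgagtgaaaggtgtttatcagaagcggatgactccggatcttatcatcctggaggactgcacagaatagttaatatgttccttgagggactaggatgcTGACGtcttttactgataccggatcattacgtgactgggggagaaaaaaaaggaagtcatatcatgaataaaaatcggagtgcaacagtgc
Vip: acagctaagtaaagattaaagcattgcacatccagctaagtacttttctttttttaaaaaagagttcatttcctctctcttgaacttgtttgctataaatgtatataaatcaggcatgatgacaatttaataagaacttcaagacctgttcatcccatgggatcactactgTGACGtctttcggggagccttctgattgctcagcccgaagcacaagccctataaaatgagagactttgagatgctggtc
Adcyap1r1: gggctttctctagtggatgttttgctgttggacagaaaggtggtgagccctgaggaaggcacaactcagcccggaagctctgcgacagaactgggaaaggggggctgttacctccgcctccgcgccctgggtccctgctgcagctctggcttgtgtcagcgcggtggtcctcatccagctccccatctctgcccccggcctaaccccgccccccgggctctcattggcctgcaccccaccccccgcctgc

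Both ligand genes held 1 match to TGACG, 91 bases before the start in Adcyap1 and 79 bases before it in Vip. The Adcyap1r1 and Vipr2 windows held 0 matches, and that of Vipr1 held 1, on the opposite strand and 13 bases before the start. The same letters occur in 17.7% of 32817 upstream windows of this length, so a match is a description of the letters and not a site. The palindromic CRE TGACGTCA, which contains the core and occurs in 1.55% of windows, was in none of the windows of the 5 genes, and the SMAD box CAGAC, in 42.2% of windows, was only in that of Vipr1. The upstream bases were poor in G and C for both ligands (39.6% for Adcyap1 and 38.4% for Vip) and rich for the receptors (65.6% for Adcyap1r1, 72.8% for Vipr1 and 65.2% for Vipr2), against a median of 52.4% over all windows. Adcyap1 has another annotated start downstream, and its window reaches the same TGACG, 242 bases before that start.

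Library totals ran from 38261449 to 39474515 counts, so that 3 counts, the smallest number treated as detected, equal 0.0747 to 0.0784 CPM (counts scaled to library size and composition). Rnf111 itself was lower in every heterozygous library (1712 to 1773 counts) than in every wild-type library (2060 to 2130). The fall was modest: mean CPM was 53.9 in wild type and 44.6 in heterozygous ovaries, a ratio of 0.828 (log2 -0.27). Wild-type replicate 3 stood apart. A chi-square comparison of its counts with those of the other wild-type libraries gave 59 and 61.6 per degree of freedom, where those libraries gave 11.8 with each other and pairs of heterozygous libraries gave 19.1 to 21.3. Markers of the ovary were present, with 0 of 12 oocyte and 0 of 10 granulosa markers at 0 counts. Between genotypes, 1623 of the 16841 genes with enough counts to be tested passed edgeR's quasi-likelihood test at an adjusted p of 0.05, which is 9.64%: 3.9% were higher and 5.74% lower in heterozygous ovaries. Of the 5 PACAP and VIP genes, 3 had enough counts to be tested (Adcyap1, Adcyap1r1 and Vipr1) and 2 of those were called, both lower. The count was 1, Adcyap1 alone, when wild-type replicate 2, heterozygous replicate 1 or heterozygous replicate 2 was left out. It is a description, because the genes were chosen with this contrast known.

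The PACAP gene had the greatest genotype difference of the system. Adcyap1 had 333, 538 and 224 counts in wild-type replicates 1, 2 and 3 and 14, 2 and 7 in the heterozygous replicates, or 8.69, 13.9 and 5.72 CPM against 0.349, 0.0511 and 0.183 CPM. The groups lay far apart: the lowest wild-type library, replicate 3, was 16.4 times the highest heterozygous library, replicate 1. Heterozygous replicate 2, with 2 counts, was below the 3 counts treated as detected. The mean was 9.45 ± 4.16 CPM in wild type and 0.194 ± 0.149 CPM in heterozygous ovaries (SD, n = 3 each). The fitted log2 fold change of heterozygous over wild type was -5.57 ± 0.57 (SE), the fifth steepest fall of all genes tested.

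Summed over libraries, 1095 wild-type and 23 heterozygous Adcyap1 counts gave a heterozygous level of 2.07% of the wild-type level, with an exact binomial 95% interval of 1.31 to 3.13% that covers counting error only. The log2 fold change stayed between -6.30 (without heterozygous replicate 1) and -5.12 (without heterozygous replicate 2) when any single library was left out, and it was -5.82 without wild-type replicate 3. Libraries of 1 genotype also differed among themselves, by 2.44 times in wild type and by 6.83 times in the heterozygous ovaries, where the counts are few. In whole ovaries, fewer PACAP-making cells and less RNA in each cannot be told apart.

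**Figure D1:**
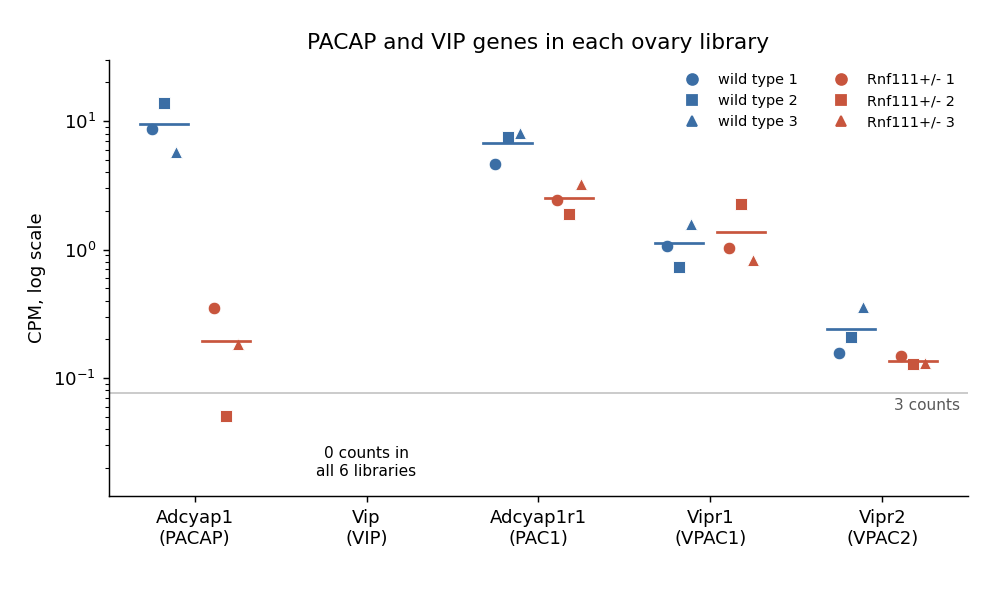
CPM of the 5 genes in each of the 6 libraries on a log scale (blue, wild type; red, Rnf111+/-; symbol shape, replicate), with group means as lines and 3 counts as a grey line. Adcyap1 separates widely, Adcyap1r1 separates by less, Vipr1 overlaps, Vipr2 lies just above the line and Vip has 0 counts in all libraries.

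No granulosa marker was called lower in the heterozygous ovaries. Of 10, 2 passed edgeR's test, both higher: the aromatase gene Cyp19a1 (log2 2.35) and Greb1 (1.07). The summed CPM of the list was 3695 to 7518 in wild-type libraries and 8663 to 11290 in heterozygous libraries, and the groups did not overlap. The lowest sum was in wild-type replicate 3, the wild-type library with the least Adcyap1. Among members at high levels, Gja1 (1764 against 3146 CPM), Inha (2048 against 2966) and Inhba (321 against 1110) did not pass. The follicle-stimulating hormone receptor gene Fshr (21.1 against 44.6 CPM), Amh (log2 0.02) and Foxl2 (-0.24) did not pass either. Summed markers of theca and interstitial cells (14940 to 15900 against 10490 to 13390 CPM), endothelium (540.8 to 658.7 against 426.7 to 492.1) and smooth muscle and pericytes (1497 to 1919 against 1050 to 1353) were lower in heterozygous libraries without overlap. Oocyte markers were higher (183.6 to 201.5 against 275.9 to 333.2), and oviduct epithelium markers were lower, at 76.4 to 81 against 91.9 to 268 with wild-type replicate 3 as the highest. Of the single markers, 1 was higher and 4 lower of 10 for theca and interstitial cells, 5 of 10 were lower for endothelium, 2 of 10 were lower for smooth muscle and pericytes, 1 of 8 tested was lower for oviduct, 3 of 10 were lower for the corpus luteum, and 8 of 12 were higher for the oocyte. Over all genes tested, 3.9% were higher and 5.74% lower. The theca and interstitial list was mixed. Cyp17a1 rose from 2.82 to 197 CPM (log2 6.13), and Insl3 (1.09), Ptch1 (0.27) and Gli1 (0.27) were higher without passing. The falls were Star (1465 against 819 CPM), Hsd3b1 (5352 against 3695 CPM), Srd5a1 (log2 -0.73) and Mgarp (-1.83). Cyp11a1, which is also in the corpus luteum list, was lower without passing (5570 against 4415 CPM). Summed markers of the corpus luteum (8436 to 11250 against 10170 to 14980), macrophages (327.5 to 542.6 against 351.5 to 457.8) and adipocytes (20 to 78.3 against 29.5 to 58.7) overlapped. The part of these shifts in the PACAP and VIP genes was not tested.

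RNA of the Vip gene was not detected in any ovary, and the VIP peptide was not measured. Vip had 0 counts in all 6 libraries, which allows at most 3 counts per library, or 0.0747 to 0.0784 CPM. No fold can be given for a gene at 0 in both genotypes. Nerve and glia markers were detected in the same libraries. Their summed level was 134.7 to 182.8 CPM in wild-type and 168.1 to 232.2 CPM in heterozygous libraries, which overlap. Of the 13 tested by edgeR, 2 were called lower, Tubb3 (log2 -0.87) and Syt1 (-1.47), and 0 higher. That is 15.4% lower, against 5.74% of all genes. The median of the list was 0.005.

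The PAC1 receptor gene was also lower in heterozygous ovaries, by less than its ligand. Adcyap1r1 had 179, 291 and 317 counts in the 3 wild-type ovaries and 98, 74 and 125 in the heterozygous ovaries, or 4.67, 7.54 and 8.10 CPM against 2.44, 1.89 and 3.27 CPM. The groups did not overlap, and the lowest wild-type library was 1.43 times the highest heterozygous library. Such separation, with the heterozygous group lower, was present in 16.9% of all genes tested. The means were 6.77 ± 1.84 and 2.53 ± 0.692 CPM (SD, n = 3 each), a log2 fold change of -1.42 ± 0.29 (SE), and the summed counts of 787 and 297 put the heterozygous level at 37.2% of wild type (counting interval 32.5 to 42.6%). The log2 fold change stayed between -1.64 and -1.24 with any library left out.

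Vipr1, the gene of the VPAC1 receptor that PACAP and VIP share, showed no separation of the genotypes. There were 41, 28 and 62 counts in wild-type and 41, 88 and 32 in heterozygous ovaries, or 1.07, 0.726 and 1.58 CPM against 1.02, 2.25 and 0.836 CPM. The highest and the second lowest values were both heterozygous, in replicates 2 and 3. The log2 fold change was 0.28 ± 0.47 (SE), with a counting interval of the summed ratio of 0.957 to 1.54, and it turned to -0.27 without heterozygous replicate 2. That library also had the highest summed erythrocyte markers, 172 CPM against 37.5 to 103 in the others, and the lowest summed lymphocyte and mast cell markers, 27.6 CPM against 33.3 to 45.8. It further had the highest granulosa sum of all libraries (11290 CPM). Its sums for theca and interstitial cells (10490 CPM) and endothelium (426.7 CPM) were the lowest of all libraries. The part of any of those cells in the Vipr1 value was not tested.

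Vipr2, the gene of the VPAC2 receptor, was near the limit of detection. It had 6, 8 and 14 counts in wild type and 6, 5 and 5 in heterozygous libraries, too few to be tested, and 0.157, 0.207 and 0.358 CPM against 0.149, 0.128 and 0.131 CPM. The groups did not overlap, by a margin of 1.05 times. Summed counts of 28 and 16 gave a ratio of 0.564 with a counting interval of 0.285 to 1.08, which includes equal levels. Wild-type replicate 3 had the highest Vipr2, and without it the log2 ratio moved from -0.83 to -0.42. Of the wild-type libraries it also had the highest summed markers in most lists. Among them were oviduct epithelium (268 against 91.9 and 94.7 CPM), macrophages (543 against 365 and 328) and adipocytes (78.3 against 20 and 36.1). Smooth muscle and pericytes (1919 against 1497 and 1786), theca and interstitial cells, corpus luteum, nerve and glia, endothelium and erythrocytes were highest there too. Granulosa markers were lowest there, and oocyte markers and those of lymphocytes and mast cells lay between the other wild-type libraries. The part of these cells in the Vipr2 value was not tested.

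Ligand and receptor were then set against each other within each library. The log2 ratio of Adcyap1 to Adcyap1r1 CPM was 0.89, 0.88 and -0.50 in wild-type replicates 1 to 3 and -2.64, -4.24 and -3.82 in heterozygous replicates 1 to 3. The heterozygous mean was thus lower by 3.99 ± 0.67 (SE) on the log2 scale, with a prior count of 2 added to each value, and the difference was -4.46 to -3.66 with any library left out. Against Vipr1 the same difference was -5.59 ± 1.17, and against Vipr2 it was -4.81 ± 0.80. The ligand was therefore lower relative to each of the detected receptors, and the receptor with the nearest change was PAC1. The size of these differences comes from the contrast by which Adcyap1 was chosen.

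**Figure D2:**
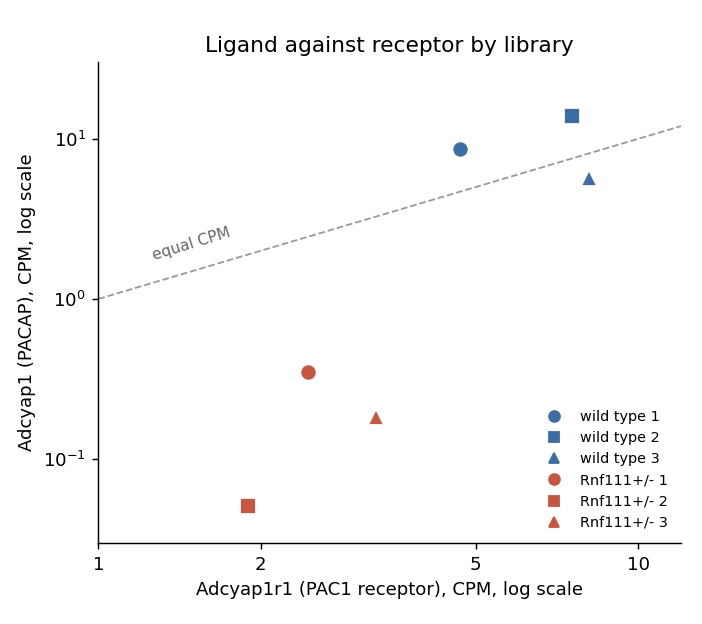
Adcyap1 CPM against Adcyap1r1 CPM in each library, both on log scales, with the dashed line at equal CPM (blue, wild type; red, Rnf111+/-). The 3 heterozygous libraries lie far below the line, wild-type replicates 1 and 2 lie above it, and wild-type replicate 3, with the most Adcyap1r1 and the least Adcyap1 of its genotype, lies just under it.

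Within a genotype, PACAP and PAC1 did not rank alike in wild type. Replicate 3 had the lowest Adcyap1 (5.72 CPM) and the highest Adcyap1r1 (8.10 CPM) of the wild-type libraries. Among heterozygous libraries, replicate 2 was lowest for both genes. With 3 libraries a genotype these orders are descriptions only.

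Levels were compared between genes per kilobase of exon, with lengths from the GENCODE M21 annotation. In wild type the order was Adcyap1 (2.67 ± 1.18 CPM per kilobase), Adcyap1r1 (1.07 ± 0.291), Vipr1 (0.23 ± 0.0881), Vipr2 (0.0711 ± 0.0309) and Vip at 0, and no neighbours in this order overlapped in their libraries. In heterozygous ovaries the order was Adcyap1r1 (0.4 ± 0.109), Vipr1 (0.279 ± 0.157), Adcyap1 (0.0548 ± 0.0421), Vipr2 (0.0402 ± 0.00349) and Vip at 0. There Adcyap1r1 and Vipr1 overlapped, as did Adcyap1 and Vipr2. On this scale the ligand exceeded PAC1 by 3.32, 3.30 and 1.26 times in wild-type replicates 1 to 3, and it was 0.255, 0.0483 and 0.1 times PAC1 in the heterozygous replicates.

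PAC1 was the main receptor RNA of the ovary in most libraries. Of the summed length-scaled level of the receptor genes, Adcyap1r1 held 73.6, 85.1 and 74.9% in the wild-type and 60.4, 37.6 and 71.2% in the heterozygous replicates. Vipr1 held 21.8, 10.6 and 18.9% in wild type and 32.6, 57.7 and 23.5% in heterozygous libraries, so that it exceeded PAC1 in heterozygous replicate 2 alone. Vipr2 held 4.37 to 6.92% over all libraries. The summed receptor level was 1 to 1.71 CPM per kilobase in wild type and 0.638 to 0.795 in heterozygous ovaries.

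Genes whose log2 CPM followed each PACAP or VIP gene most closely over the 6 libraries were listed by Pearson's r. The search covered the 14308 genes that averaged 1 CPM or more, and with 6 points that share their libraries r is a description. For Adcyap1 they included Parp16 (r = 0.999), P2rx6 (0.998), Acadm (0.997) and Plxnd1 (0.997). These 4 were lower in heterozygous ovaries but by much less than Adcyap1, with log2 fold changes of -1.30 (P2rx6) to -0.29 (Acadm). For Adcyap1r1 they were Ccnd3 (0.998), Gm12657 (0.996), Ywhah (0.991), Zcchc9 (0.991) and Srpx (0.990), with log2 fold changes of -0.83 (Srpx) to -0.21 (Zcchc9). For Vipr1 they were Gm14393 (0.987), A630089N07Rik (0.98), Gm35597 (0.978), Gm3055 (0.977) and A430035B10Rik (0.975), genes at 0.938 to 2.17 CPM by group mean. No gene was in the lists of both Adcyap1 and its receptor. Lists of 5 out of 14308 genes are too short to tell whether genes follow both.

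The pathway around the 5 genes was described through 8 lists with 164 genes, of which 136 could be tested. Of these, 11 were higher, 14 were lower and 111 did not pass, so 18.4% were called against 9.64% of all genes. The median log2 fold change was -0.02 over the lists and -0.01 over all genes. All 8 lists were chosen with earlier results of these data known, so the shares called are a description. Without wild-type replicate 3 the counts were 19 higher and 17 lower. They fell to 7 higher and 5 lower without heterozygous replicate 2, to 7 and 4 without heterozygous replicate 3, to 9 and 8 without wild-type replicate 1 and to 10 and 7 without heterozygous replicate 1.

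**Figure D3:**
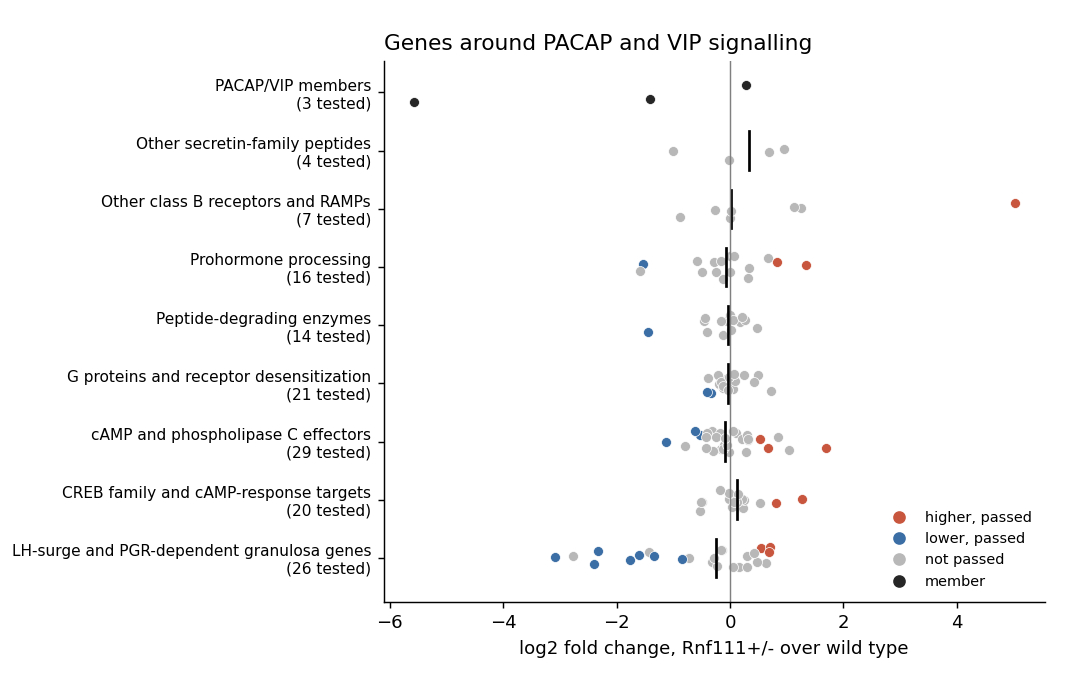
Log2 fold change of heterozygous over wild type for each tested gene, 1 row per list (red, higher and passed edgeR's test; blue, lower and passed; grey, did not pass; black points, the PACAP and VIP genes; black bar, list median). Adcyap1 lies at -5.57 in the top row, the receptor gene Crhr1 at 5.02, and 7 of the 14 falls among the lists are in the bottom row of ovulatory genes.

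Ovulatory genes, those known to answer to the LH surge or to the progesterone receptor in granulosa cells, held the most calls. Of 26 tested, 3 were higher and 7 lower (26.9% lower, against 5.74% of all genes), with a median of -0.25. This list was chosen with earlier results of these data known, so its share is a description. Runx1 encodes a transcription factor that the LH surge induces. It fell from 185.5, 204.3 and 211.5 CPM to 64.6, 60.9 and 72.8 CPM (log2 -1.60 ± 0.09, edgeR adjusted p = 0.00015). Prkg2, a cGMP-dependent kinase induced through the progesterone receptor, fell from 6.52, 6.17 and 12.2 CPM to 1.47, 1.69 and 1.78 CPM (-2.33 ± 0.30, adjusted p = 0.00335). Neither gene overlapped between genotypes, and both kept their calls with any library left out. Ereg, the EGF-like growth factor epiregulin, fell from 1.67, 5.16 and 2.48 CPM to 0.548, 0.868 and 0.340 CPM (-2.40 ± 0.51, adjusted p = 0.0248).

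Named after their values were seen, the other falls of that list were Adamts1, a matrix protease (-3.08), Sphk1, the sphingosine kinase (-1.76), and the transcription factors Runx2 (-1.34) and Cebpb (-0.85). The rises were Epas1, a hypoxia-inducible factor (0.68 ± 0.08, adjusted p = 0.00219), Ctsl, the protease cathepsin L (0.55 ± 0.07, adjusted p = 0.00385), and, named after its value was seen, Pparg (0.70). The progesterone receptor gene Pgr, at 1.79 ± 0.294 against 2.01 ± 0.828 CPM, did not pass (0.17 ± 0.34, adjusted p = 0.809), and neither did the LH receptor gene Lhcgr, at 300 ± 129 against 179 ± 92.9 CPM (-0.74 ± 0.56, adjusted p = 0.48). Ptgs2, which makes prostaglandins (-0.32, adjusted p = 0.509), and Il6 (-1.43 ± 0.43, adjusted p = 0.0729) did not pass. Areg, the EGF-like factor amphiregulin, was too low to test, with 4, 4 and 24 counts in wild type and 1, 0 and 1 in heterozygous libraries.

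The number of ovulatory falls rested on single libraries. Leaving out wild-type replicate 1 gave 4, replicate 2 gave 7 and replicate 3 gave 8, whereas leaving out heterozygous replicate 1 or 2 gave 3 and replicate 3 gave 2. With no filter on low counts it was 4. The rises numbered 5 when wild-type replicate 3 was left out, and 2 when wild-type replicate 1 or any heterozygous library was. Adamts1, Runx2, Cebpb and Pparg lost their calls without wild-type replicate 1 or any heterozygous library, with adjusted p of up to 0.15, 0.107, 0.131 and 0.13. The log2 fold change of Adamts1 was -2.35 without wild-type replicate 3. Ereg lost its call without wild-type replicate 2 (-1.81) or any heterozygous library (up to 0.0952), and Sphk1 without heterozygous replicate 3 (0.0726).

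**Figure D4:**
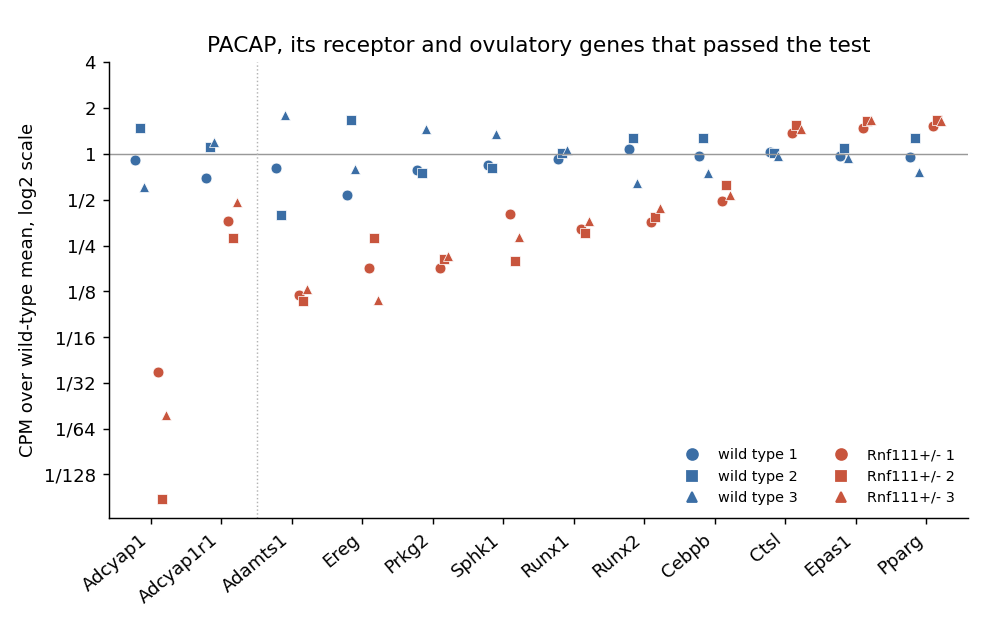
CPM in each library divided by the wild-type mean of the gene, on a log2 scale, for Adcyap1, Adcyap1r1 and the 10 ovulatory genes that passed edgeR's test (blue, wild type; red, Rnf111+/-; symbol shape, replicate). Heterozygous Adcyap1 lies at 2.05% of the wild-type mean on average, far under the heterozygous values of Adamts1, Ereg and Prkg2. No gene shown has overlapping groups, but the genes shown were chosen with this contrast, so that is a description. Among all genes tested, 16.9% had groups without overlap and with the heterozygous group lower.

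Wild-type libraries differed from each other in which ovulatory genes were high. Runx2 (169.9, 198.7 and 101 CPM in wild-type replicates 1, 2 and 3) and Cebpb (173.9, 226.6 and 134.4 CPM) were highest in replicate 2 and lowest in replicate 3, the order of Adcyap1. Adamts1 (248.3, 122.1 and 548.2 CPM), Prkg2 and Sphk1 (14.2, 13.7 and 22.6 CPM) were highest in replicate 3, where Adcyap1 was lowest. Runx1 (185.5, 204.3 and 211.5 CPM) was also highest in replicate 3. Ereg (1.67, 5.16 and 2.48 CPM) was highest in replicate 2 but lowest in replicate 1. Orders of 3 libraries are descriptions only.

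The list of prohormone processing holds enzymes that make active peptides from precursors and also proteins that are not enzymes. It had 2 rises, 1 fall and 13 genes that did not pass, a share of 18.8% called against 9.64% of all genes. Pcsk5, a convertase of the furin type, fell from 148.8 ± 43.1 to 51.5 ± 7.17 CPM (-1.53 ± 0.22, adjusted p = 0.00967). Scg5, the chaperone of convertase PC2, rose from 1.99 ± 0.3 to 5.04 ± 0.629 CPM (1.34 ± 0.22, adjusted p = 0.00926), and Qpct, which cyclizes peptide ends, rose from 6.82 ± 0.439 to 12.1 ± 0.806 CPM (0.83 ± 0.14, adjusted p = 0.0101). The call of Scg5 was lost without heterozygous replicate 2 (adjusted p = 0.0534) and that of Qpct without heterozygous replicate 3 (0.0529).

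The convertases best known for neuropeptides were low or did not pass. Pcsk1 was too low to test, with 6, 7 and 29 counts against 8, 0 and 4. Pcsk2 was at 0.734 ± 0.198 against 0.489 ± 0.267 CPM (-0.58 ± 0.52, adjusted p = 0.533). Pcsk4, known to process the PACAP precursor in gonads, was at 3.62 ± 1.5 against 2.58 ± 0.769 CPM (-0.49 ± 0.38, adjusted p = 0.47). Furin (182.3 ± 37.5 against 182.5 ± 17.3 CPM, log2 0.00 ± 0.14), the carboxypeptidase gene Cpe (1470 ± 185 against 1344 ± 127 CPM, -0.13 ± 0.11) and the amidating enzyme gene Pam (214.7 ± 10.5 against 213.5 ± 1.43 CPM, -0.01 ± 0.07) did not pass either, with adjusted p of 0.995, 0.514 and 0.961.

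Peptide-degrading enzymes had 1 fall and 0 rises among 14 tested genes by edgeR's test, 7.14% against the 9.64% of all genes. At an unadjusted p under 0.05, 3 were higher, and DESeq2 called 2 of the list higher. The fall was that of Fap, a stromal serine protease related to Dpp4 (-1.44 ± 0.25, adjusted p = 0.0118), lost without heterozygous replicates 2 and 3. Dpp4, which trims PACAP and VIP at their amino end, was at 11.5 ± 3.08 against 10.6 ± 0.393 CPM (-0.12 ± 0.19, adjusted p = 0.759). Mme, the neprilysin gene, was at 33.7 ± 3.67 against 46.6 ± 9.35 CPM and did not pass (0.47 ± 0.15, adjusted p = 0.0885).

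Downstream of the receptors, the stimulatory G protein gene Gnas was at 1021 ± 21.9 against 992 ± 38.4 CPM (-0.04 ± 0.07, adjusted p = 0.744). Of 21 tested genes of G proteins and receptor desensitization, 2 fell and 0 rose by edgeR's test, 9.52% against 9.64% of all genes. At an unadjusted p under 0.05, 3 were higher, and 2 rises passed with upper-quartile scaling, with no filter, with DESeq2, with the replicate block and without wild-type replicate 3. The falls were Gna11, a subunit that activates phospholipase C (-0.34 ± 0.08, adjusted p = 0.0321), and Gnao1, an inhibitory-class subunit (-0.41 ± 0.09, adjusted p = 0.0267). Both calls held in 1 of the 6 fits with a library left out, that without wild-type replicate 3.

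The effectors of cAMP and phospholipase C had 3 rises and 3 falls among 29 tested genes, 20.7% called against 9.64% of all genes. Prkaca, the main catalytic subunit of protein kinase A, fell from 167.7, 164.3 and 169 CPM to 115.9, 111 and 118.5 CPM (-0.54 ± 0.06, adjusted p = 0.00192). Prkar2b, a regulatory subunit of the same kinase, rose from 804.4, 738 and 722.8 CPM to 1076, 1380 and 1160 CPM (0.67 ± 0.10, adjusted p = 0.00627). The 2 subunits thus moved in opposite directions with no overlap of the genotypes, and both calls held with any library left out.

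The adenylyl cyclase gene Adcy1 rose from 0.543 ± 0.0726 to 1.77 ± 0.217 CPM (1.70 ± 0.32, adjusted p = 0.0153), and Plcb2, a phospholipase C, fell from 10.5 ± 2.73 to 4.81 ± 0.755 CPM (-1.12 ± 0.22, adjusted p = 0.0187). Named after their values were seen, the remaining calls were Adcy5 (0.52) and Plcb4 (-0.62). Each of these calls was lost without heterozygous replicate 2 or 3 and without 1 or more other libraries: wild-type replicate 2 for Adcy1 and Plcb4, wild-type replicate 1 and heterozygous replicate 1 for Plcb2, and all but wild-type replicate 3 for Adcy5. The cyclases Adcy3 (-0.15, adjusted p = 0.383) and Adcy9 (0.29, adjusted p = 0.119), the cAMP sensor Rapgef3 (-0.41, adjusted p = 0.119) and the phosphodiesterases Pde4d (0.28, adjusted p = 0.542) and Pde10a (-0.09, adjusted p = 0.852) did not pass. With libraries left out, the list had 1 rise and 1 fall without heterozygous replicate 2 or 3 and 1 rise without wild-type replicate 2.

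The list of CREB, its relatives and coactivators and the genes that cAMP induces through them had 2 rises and 0 falls among 20 tested by edgeR and by DESeq2, 10% against 9.64% of all genes, and at an unadjusted p under 0.05 edgeR gave 5 higher and 0 lower. Fos, an immediate early gene, rose from 8.27 ± 0.949 to 19.9 ± 4.16 CPM (1.27 ± 0.18, adjusted p = 0.00472), and Gem, a small GTP-binding protein gene, rose from 40.9 ± 3.1 to 71.7 ± 4.61 CPM (0.81 ± 0.09, adjusted p = 0.00139). Both rises held with any library left out. Creb1 (0.14, adjusted p = 0.319), Crem (0.06, adjusted p = 0.875) and Nr4a1 (-0.01, adjusted p = 0.985) did not pass.

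Among the relatives of the system, few were expressed. Of 16 other peptides of the secretin family and related hormones, 4 were tested and 0 were called by edgeR's quasi-likelihood test or by DESeq2, with 1 at an unadjusted p under 0.05 in edgeR. Among them, adrenomedullin (Adm) was at 3.6 ± 0.0527 against 3.57 ± 1.06 CPM (-0.01 ± 0.26, adjusted p = 0.987). Of 15 other class B receptors and their accessory proteins, 7 were tested and 1 was called, 14.3% against 9.64% of all genes. It was Crhr1, a receptor for corticotropin-releasing hormone. It had 6, 1 and 0 counts in wild type and 76, 88 and 78 in heterozygous libraries (adjusted p = 0.00525), the opposite direction to Adcyap1r1. The fitted log2 fold change was 5.02 ± 0.72, a size set partly by the prior count where wild-type counts are this low, and it was 7.01 without wild-type replicate 1. Ghrhr, the receptor gene for growth hormone-releasing hormone, had 0 counts in all libraries. Calcrl, the receptor of adrenomedullin and calcitonin gene-related peptide, was at 24.7 ± 3.84 against 24.7 ± 0.861 CPM (0.00 ± 0.12, adjusted p = 0.991), and Ramp2, an accessory protein that also binds VPAC1, was at 32.1 ± 1.31 against 26.8 ± 2.34 CPM (-0.26 ± 0.10, adjusted p = 0.13). The other accessory proteins, named after their values were seen, did not pass edgeR's test although their groups did not overlap: Ramp1 was at 14 ± 7.52 against 33.5 ± 4.86 CPM (1.26 ± 0.36, adjusted p = 0.086) and Ramp3 at 2.06 ± 0.564 against 4.49 ± 1.3 CPM (1.12 ± 0.30, adjusted p = 0.0519). Both passed without wild-type replicate 3 (adjusted p of 1.8e-05 and 0.0146) and with DESeq2 (0.000293 and 0.00571), and Ramp3 also with upper-quartile scaling (0.0486) and with no filter (0.0252).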

How the data were processed

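Bulk RNA sequencing of 6 mouse ovaries gave 1 table, deposited by the authors, that holds unnormalized counts of reads for 35415 gene symbols, with 0 columns lacking a sample. The submitters' processing notes name fastp (0.20.1), HISAT2 (2.1.0), HTSeq (0.11.2), DESeq2 (1.38.3) and build GRCm39. The sources used here do not give their roles, the annotation or the strand setting. On GENCODE M21, used only for gene lengths and neighbours, Vipr2 overlaps Gm20658 (1 count in all libraries), and the other genes of the system overlap none.

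Counts were filtered with edgeR's (4.0.16) filterByExpr (minimum count 10, minimum total 15), scaled by TMM and fitted by genotype alone with the robust quasi-likelihood method (R 4.3.3). The two-sided test was adjusted by Benjamini-Hochberg over 16841 genes, and an adjusted p under 0.05 was called. An adjusted p comes from this fit unless another fit (a library left out, the replicate block or another tool) is named beside it. An SE was obtained as the size of the log2 fold change over the root of F. CPM uses the TMM scale, and log2 CPM a prior count of 2. P-values set the genotype difference against the spread between libraries of a genotype, which the fit moderates over all genes. Data were simulated for this comparison on 16589 genes, with 100 genes changed by 1 and 100 by 2 on the log2 scale. Of these, 66% and 88% were recovered, and 7.78% of called genes were false, more than the threshold of 0.05 aims at. The share of genes changed there was smaller than the 9.64% called in the data, so these rates need not carry over.

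The genes, the 8 pathway and 12 marker lists and the tests were chosen with earlier results of these data known. Genes named in the text are the system's 5, Rnf111, 30 pathway genes given whatever their result, up to 4 called genes of smallest p from each list and the 5 most like each tested gene of the system, except that some are not reported here. Alternatives were other scalings, filters, DESeq2 (1.42.0), a replicate block and leaving out each library. Sequences of all 5 genes were matched by symbol in RefSeq's promoter table.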

Additional observations from a re-analysis of the deposited data

How the results depend on the processing

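The log2 fold changes of Adcyap1 (-5.59 to -5.02) and Adcyap1r1 (-1.42 to -1.38) kept their direction under other scalings and filters, DESeq2, the replicate block and 0.1 CPM added to group means. Vipr1 was 0.21 to 0.31 there. Vipr2 had too few counts for the other scalings, the stricter filter and the replicate block. It was -0.82 to -0.53 in the rest, and -1.06 to -0.42 with libraries left out. DESeq2 called 2532 genes, 1125 of them higher, and 19 higher pathway genes, against 1623, 657 and 11. With a library left out, called genes numbered 530 to 2795, higher 224 to 1273 and lower 297 to 1522, and pathway genes 7 to 19 higher and 4 to 17 lower, with the largest counts without wild-type replicate 3. The cause of the difference between tools was not tested.

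Libraries with the same replicate number were not paired by their data: deviations from group means correlated at 0.012, 0.00568 and 0.1, and 1 of the 3 heterozygous libraries correlated best with its own number. With the replicate block, 1626 genes were called, pathway genes 13 higher and 13 lower, and the calls of Adamts1 (adjusted p = 0.0573) and Runx2 (0.0709) were lost. Depth limits Vip, Vipr2 and heterozygous Adcyap1, whose libraries held 0 to 14 counts.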
